A study of Mus musculus with 42 samples.

Results

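Chemokines and their receptors outside the CXCR2 axis were examined in healing skin of diabetic mice. The members were all genes of the array table whose symbol is Ccl, Ccr, Cxcl or Cxcr followed by a number, or begins with Cx3c, Xcl or Xcr followed by a number. Cxcr2, its ligands Cxcl1, Cxcl2, Cxcl3 and Cxcl5, and Ccl24 were left out, which makes 6 genes. This rule gave 44 members, each with 1 probe set, of 20672 probe sets in all, and it used no measured difference between groups. Ccl19, Ccl21, Ccl26 and Cxcr1 were not analysed here.

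Skin from the edge of a full-thickness wound was profiled on Affymetrix Mouse430V2 arrays to compare what IL-22-Fc, VEGF and PDGF do in the diabetic wound. IL-22-Fc is a fusion of interleukin 22 with an antibody Fc part, VEGF drives the growth of vessels and PDGF drives the growth of fibroblasts. At day 7, with topical doses on days 0, 2, 4 and 6, there were 5 arrays of IL-22-Fc wounds, 5 of VEGF wounds, 3 of PDGF wounds and 5 of control wounds. At 24 h after 1 dose there were 5, 5, 5 and 4 arrays of the same kinds, and 5 arrays came from untreated skin at baseline, 42 arrays in all. The wounded mice were db/db females, which lack a working leptin receptor, are obese and hyperglycaemic and close wounds slowly. The methods give their age as 10 to 12 weeks, give the background as BKS and state that mice with high blood glucose were chosen, whereas the labels name C57BL/6 as the strain of every array. The genotype of the untreated mice is not in the labels, and no array is labelled as lean. A difference from untreated skin thus joins wounding, control protein and possibly genotype. For the control wounds the labels name anti-ragweed, an antibody with no target in the mouse, where the methods name a control Fc protein. The labels give 50 µg PDGF, 20 µg VEGF and, at 24 h only, 50 µg IL-22-Fc, whereas the methods give 50 µg for VEGF as well.

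Chemokines are small secreted proteins that bind G protein-coupled receptors on leukocytes and direct their migration along a gradient. Inflammatory chemokines such as Ccl2, Ccl3 and Cxcl10 are switched on in injured tissue and recruit monocytes and T cells, whereas homeostatic ones such as Cxcl12, Cxcl13 and Ccl27a are made in resting tissue and position cells there. In a healing wound the neutrophils that respond to the CXCR2 ligands are followed by Ccr2-bearing monocytes, which become the macrophages of the granulation tissue.

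All values are log2 of the deposited RMA intensity, so a difference of 1 is a doubling. A gene was called when limma gave an adjusted p under 0.05 over all 20672 probe sets and the groups differed by at least 1.5-fold. The intensity of a probe set also depends on its sequence, so levels were compared between groups and not between genes. Of the 44 members, 29 were called in at least 1 of 9 comparisons and 15 in none. Probe sets for the Y-linked genes Uty, Kdm5d and Eif2s3y, which female mice lack, reached at most 3.78. This was taken as the level of background, which can differ between probe sets. In 6 members (Ccr3, Ccr8, Ccr1l1, Cxcr5, Cxcl15 and Xcr1) no group mean reached 4, and these were at or near that background throughout.

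The tissue carried markers of skin. Krt5 and Krt1, keratins of the basal and upper epidermis, had group means of 12.25 to 13.47 and 12.55 to 13.80. Other keratinocyte markers had lower group means, of 5.43 to 6.84 for Krt14, 5.27 to 6.61 for Trp63 and 5.55 to 7.79 for Ivl. How well each probe set reports its gene was not tested. Of the eosinophil markers, Epx, Prg2 and Siglecf had no group mean above that background, and of the T cell markers Cd8a and Cd8b1 had none. In bulk skin, a lower level can come from fewer cells of a type or from less RNA in each cell, and these cannot be told apart. The array of untreated replicate 5 correlated less with its group (median r 0.945) than any other array (0.986 or more). In the PDGF wounds of day 7 the control probe set at the 5′ end of Gapdh was at 11.48 ± 0.19 (SD, n = 3), against 12.90 ± 0.06 (SD, n = 5) in the control wounds of day 7.

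In control wounds most inflammatory chemokines were higher than in untreated skin at 24 h and lower again by day 7. In control wounds at 24 h, 16 of 44 members (36.4%) were higher than in untreated skin and none was lower, while 18.2% of all probe sets were called (7.86% higher and 10.3% lower). At day 7 the control wounds had 14 members higher and 2 lower than untreated skin (15.7% of all probe sets called, 7.40% higher and 8.30% lower). Between the times, 14 members were lower and 3 higher at day 7 than at 24 h (13.2% of all probe sets called, 6.05% lower and 7.19% higher). Of the 16 members that were high at 24 h, 12 were lower at day 7. Both calls use the same 24 h control arrays, so they are not independent, and high values in those arrays favour both. The median change over the members was 0.35 at 24 h and 0.29 at day 7, beside 0.03 and 0.04 over all probe sets.

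The 4 ligands listed for Ccr2, the receptor that brings monocytes out of the blood, were Ccl2, Ccl7, Ccl12 and Ccl8, and in the mouse Ccl8 also acts on Ccr8. Ccl7 stood at 5.67, 6.59, 8.06, 6.68 and 5.65 in untreated skin, at 11.01, 10.08, 11.51 and 10.87 in 24 h control wounds and at 8.41, 9.07, 8.47, 8.31 and 8.51 in day 7 control wounds. The arrays of the 24 h wounds were all higher than those of both other groups. The 24 h wounds were above untreated skin by 4.33 (standard error 0.38, adjusted p = 1.6e-11), a 20.2-fold difference, and the day 7 wounds by 2.02 (standard error 0.36, adjusted p = 1.9e-05). Ccl12 stood at 5.74, 6.52, 7.15, 5.47 and 5.79 in untreated skin, 10.81, 8.29, 11.82 and 10.29 at 24 h and 7.90, 8.75, 7.84, 8.06 and 7.63 at day 7. Its wound arrays were all above the untreated ones, with the second 24 h array within the day 7 range. Ccl12 was higher than in untreated skin by 4.17 (standard error 0.52, adjusted p = 4.6e-08) at 24 h and by 1.90 (standard error 0.49, adjusted p = 0.0022) at day 7. Ccl2, the main monocyte attractant, had 7.76, 7.89, 10.89, 9.06 and 5.54 in untreated skin, 11.70, 11.12, 11.98 and 11.34 at 24 h and 9.95, 10.56, 9.82, 10.15 and 10.03 at day 7. Its untreated arrays spanned more than 5 log2 units, and the third of them lay above all day 7 arrays. The Ccl2 means differed from untreated skin by 3.30 (standard error 0.51, adjusted p = 1.9e-06) at 24 h and 1.87 (standard error 0.48, adjusted p = 0.0019) at day 7. The day 7 call was lost with only the compared groups in the fit, and the SD of untreated skin was 1.96. Ccl2 was also called lower at day 7 than at 24 h. That call was lost in 4 of the limma fits that leave out 1 array (adjusted p up to 0.091). Ccl8 ran another course and was not called at 24 h (0.31, 95% interval -0.09 to 0.71). It reached 12.68, 12.57, 12.79, 12.83 and 12.56 in day 7 control wounds, after 12.32, 11.05, 12.55 and 11.72 at 24 h. Ccl8 in day 7 wounds was higher than in untreated skin by 1.09 (standard error 0.19, adjusted p = 1.3e-05).

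The inflammatory ligands Ccl3, Ccl4, Ccl5, Ccl6 and Ccl9, which attract monocytes, macrophages and T cells, all rose at 24 h (5 of 5). Ccl3, a product of activated macrophages and neutrophils, changed the most of all members. It stood at 3.98, 3.37, 5.94, 4.64 and 4.13 in untreated skin, near the background in part of the arrays, at 10.86, 10.91, 10.76 and 11.14 at 24 h and at 6.78, 7.04, 7.20, 5.87 and 6.50 at day 7. The 24 h wounds did not overlap with the other groups, and the day 7 wounds overlapped with untreated skin by 1 array on each side. At 24 h Ccl3 was higher by a fitted log2 change of 6.50 (standard error 0.61, adjusted p = 8.1e-11). The second untreated array was under the background of 3.78. With that array raised to the background, the difference of the means was 85.8-fold (log2 change 6.42). At day 7 it was below the 24 h level by a log2 change of -4.24 (standard error 0.61). Ccl4, its neighbour on chromosome 11, had 5.86, 6.14, 6.72, 6.51 and 5.66 in untreated skin, 10.89, 10.62, 11.33 and 10.79 at 24 h and 7.45, 7.59, 7.36, 6.55 and 7.00 at day 7. It was higher at 24 h than in untreated skin by 4.73 (standard error 0.53, adjusted p = 4.3e-09). Whether the probe sets of Ccl3 and Ccl4 separate these genes is not given in the sources used here. Ccl6 and Ccl9, macrophage chemokines of the mouse that bind Ccr1, rose by 2.23 (standard error 0.23) and 2.27 (standard error 0.28). Ccl6 had 8.65, 9.09, 10.29, 9.64 and 8.22 in untreated skin, 11.53, 11.08, 11.35 and 11.68 at 24 h and 11.17, 11.25, 10.93, 11.40 and 11.31 at day 7. Both wound groups lay above untreated skin and overlapped with each other. At day 7 Ccl6 was above untreated skin by 2.04 (standard error 0.22, adjusted p = 1.7e-09) and differed from 24 h by -0.20 (95% interval -0.67 to 0.27). Ccl5, a T cell and platelet chemokine, had 7.88, 6.17, 9.15 and 7.35 at 24 h, against 6.06, 6.19, 6.44, 6.15 and 5.94 in untreated skin. The second array of the 24 h wounds lay within the untreated range, and without the third of them the Ccl5 difference of 1.48 (adjusted p = 0.0047) was 0.98 (adjusted p = 0.064).

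The 3 ligands of Cxcr3, a receptor of activated T cells and NK cells, are induced by interferons in many cell types and are neighbours on chromosome 5. Cxcl10 stood at 4.10, 6.21, 6.55, 4.73 and 5.53 in untreated skin, at 11.48, 8.17, 12.77 and 11.29 at 24 h and at 6.27, 8.20, 6.04, 6.02 and 5.77 at day 7. All 24 h arrays were above the untreated ones, and the second of them lay just below the highest array of day 7. Cxcl10 rose by 5.50 at 24 h (standard error 0.77, adjusted p = 3.7e-07) and was lower at day 7 than at 24 h by a log2 change of -4.47 (standard error 0.77, adjusted p = 2.0e-05). Cxcl9 had 8.98, 8.11, 8.15 and 8.49 at 24 h, against 6.25, 7.13, 7.25, 6.36 and 6.48 in untreated skin, with no overlap (1.74, standard error 0.37, adjusted p = 0.00021). Cxcl11, a transcribed pseudogene in the RefSeq annotation of the reference mouse, had 6.53, 4.13, 7.85 and 6.00 at 24 h, against 3.81, 4.19, 3.93, 3.71 and 4.45 in untreated skin (2.11, standard error 0.53, adjusted p = 0.0015). In the second 24 h array Cxcl11 was within the untreated range. At day 7 none of the 3 was called against untreated skin (changes of -0.05 for Cxcl9, 1.04 for Cxcl10 and 0.11 for Cxcl11). In the interferon-gamma response list, 13 of 17 genes rose at 24 h, among them Irf1 and Igtp, and 12 of 17 were lower at day 7 than at 24 h. The probe set of Ifng itself stayed at the background. The summed level of the list was 11.89 to 12.87 in untreated skin, 12.92 to 14.22 at 24 h and 12.15 to 12.50 at day 7, and the part of interferon in the chemokine values was not tested.

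The sequence before the transcription start is shown for 5 members on which the course and the treatments turn: Cxcl10 and Cxcl9, which rose and fell together in the control wound, Ccl3, Ccl17 and Cxcl13. Each line gives the 250 bases before the RefSeq start, 5′ to 3′ on the coding strand, build GRCm38.p6, with motif matches in capitals. Their positions are chr5:92348890-92349139 on the minus strand for Cxcl10, chr5:92328080-92328329 on the minus strand for Cxcl9, chr11:83649379-83649628 on the minus strand for Ccl3, chr8:94810203-94810452 on the plus strand for Ccl17 and chr5:95956689-95956938 on the plus strand for Cxcl13.
Cxcl10: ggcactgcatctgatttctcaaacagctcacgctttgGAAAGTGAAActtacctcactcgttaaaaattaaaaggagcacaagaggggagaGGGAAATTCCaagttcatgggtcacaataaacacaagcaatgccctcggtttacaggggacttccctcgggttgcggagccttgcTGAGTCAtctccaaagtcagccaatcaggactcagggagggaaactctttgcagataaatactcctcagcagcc
Cxcl9: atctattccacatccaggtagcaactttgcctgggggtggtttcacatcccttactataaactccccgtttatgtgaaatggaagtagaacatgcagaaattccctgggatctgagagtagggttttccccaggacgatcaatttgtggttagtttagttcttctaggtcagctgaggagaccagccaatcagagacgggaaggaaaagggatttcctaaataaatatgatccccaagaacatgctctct
Ccl3: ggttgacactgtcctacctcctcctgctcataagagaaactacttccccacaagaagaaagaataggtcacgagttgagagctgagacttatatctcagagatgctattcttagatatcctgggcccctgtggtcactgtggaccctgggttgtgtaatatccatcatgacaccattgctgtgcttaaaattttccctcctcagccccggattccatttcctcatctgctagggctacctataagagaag
Ccl17: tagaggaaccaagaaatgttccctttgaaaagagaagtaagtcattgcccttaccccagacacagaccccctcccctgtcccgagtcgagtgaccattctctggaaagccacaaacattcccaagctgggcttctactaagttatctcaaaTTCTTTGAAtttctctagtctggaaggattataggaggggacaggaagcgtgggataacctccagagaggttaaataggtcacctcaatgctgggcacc
Cxcl13: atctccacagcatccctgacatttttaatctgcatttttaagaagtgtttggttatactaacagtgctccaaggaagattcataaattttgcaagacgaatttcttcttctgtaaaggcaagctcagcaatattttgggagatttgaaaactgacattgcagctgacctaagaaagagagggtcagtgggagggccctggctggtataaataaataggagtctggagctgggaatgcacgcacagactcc
Motifs were searched on both strands in the windows of 300 bases that RefSeq tables gave for 33 of the 44 members (250 before the start and 50 after it). The letters were GGGA and TTCC with 2 free bases between them for a kappaB site, TTTC and TTTC with 2 free bases between them for an interferon-stimulated response element, TTC and GAA with 3 free bases for a STAT site and TGA and TCA with 1 free base for an AP-1 site, and these 4 motifs do not contain one another. Cxcl10 had matches to the response element starting 213 bases before the start, to the kappaB site 159 bases before it and to the AP-1 site 74 bases before it. Ccl17 had a match to the STAT letters 99 bases before the start, and an AP-1 match of Cxcl9 lay after its start. Of 32851 windows in all, 3.44% held the response element, 1.47% the kappaB letters, 8.3% the STAT letters and 7.81% the AP-1 letters. Of the 33 members, which had 37 windows, 2, 3, 4 and 8 held them in at least 1 window. The shares are of windows and the counts are of members, so they are not in the same unit. A match of letters is a description and does not show that a factor binds.

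Among the receptors, Ccr2, Ccr1, Cxcr4 and Ccr7 were higher in control wounds than in untreated skin at both times. Ccr2 was at 4.78, 6.36, 7.82, 6.39 and 6.85 in untreated skin, at 9.96, 9.75, 10.52 and 9.85 at 24 h and at 8.54, 8.36, 8.25, 8.03 and 8.13 at day 7. The 3 groups did not overlap. Ccr2 rose by 3.58 at 24 h (standard error 0.31, adjusted p = 2.0e-11) and was still higher at day 7 by 1.82 (standard error 0.30, adjusted p = 5.8e-06). Ccr1, which lies with Ccr2 in a group of receptor genes on chromosome 9, was at 3.41, 3.59, 4.78, 2.98 and 2.49 in untreated skin, 6.60 ± 0.35 at 24 h (SD, n = 4) and 5.10 ± 0.32 at day 7 (SD, n = 5). In 4 of the 5 untreated arrays Ccr1 was under the background of 3.78. With those arrays raised to the background, the Ccr1 means were higher by 2.62 at 24 h and 1.12 at day 7 on the log2 scale. The limma fit of the values as measured gave adjusted p = 7.4e-11 at 24 h and adjusted p = 8.6e-06 at day 7. Cxcr4, the receptor of Cxcl12 on most leukocytes, rose by 2.26 (standard error 0.30) and 1.51 (standard error 0.28). Ccr7, which takes dendritic cells and T cells to the lymph node, rose by 1.28 (standard error 0.26) and 0.89 (standard error 0.24). Cx3cr1, a receptor of resident and patrolling macrophages, was not called at 24 h (0.08, 95% interval -0.19 to 0.35). In day 7 control wounds it was at 6.46, 6.16, 6.28, 5.85 and 6.24, against 5.67, 4.76, 5.77 and 5.46 in 24 h control wounds, with no overlap (0.79, standard error 0.13, adjusted p = 1.8e-05).

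**Figure D1:**
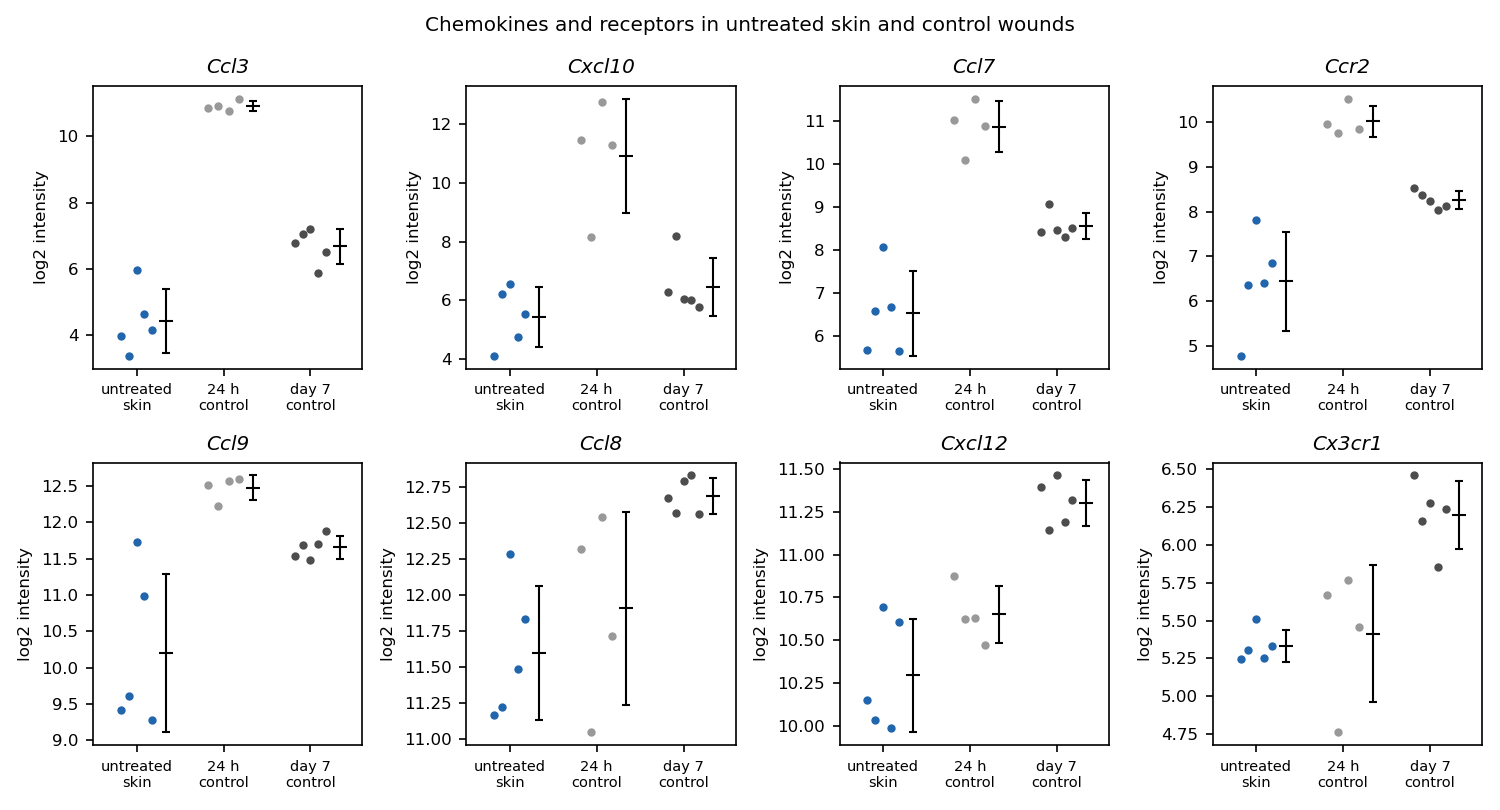
Log2 intensity of 8 members in untreated skin (n = 5), 24 h control wounds (n = 4) and day 7 control wounds (n = 5). Each point is 1 array and the black marks are the group mean with its SD. Ccl3, Cxcl10, Ccl7 and Ccr2 were highest at 24 h, whereas Ccl8, Cxcl12 and Cx3cr1 were highest at day 7.

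Of the stromal and epithelial chemokines, Cxcl12 was highest at day 7 and Cxcl14 rose at 24 h. Ccl20 and Ccl27a were lower at day 7 than in untreated skin, in calls that some other fits lost. Cxcl12, made by fibroblasts and endothelium, had 10.15, 10.04, 10.69, 9.99 and 10.61 in untreated skin, 10.87, 10.62, 10.63 and 10.48 at 24 h and 11.39, 11.14, 11.46, 11.19 and 11.31 at day 7. All day 7 arrays were above all others, by 1.00 relative to untreated skin (standard error 0.15, adjusted p = 1.0e-06) and by 0.65 relative to 24 h (standard error 0.16, adjusted p = 0.0014). Cxcl14, an epithelial chemokine, rose by 1.04 at 24 h (standard error 0.25, adjusted p = 0.00097) and was lower at day 7 than at 24 h by a log2 change of -1.44 (standard error 0.25). Ccl20, which keratinocytes make to attract Ccr6-bearing cells, had 7.05, 7.75, 6.47, 6.88 and 6.55 in untreated skin, 8.39, 7.34, 7.31 and 7.18 at 24 h and 6.82, 6.19, 5.97, 6.42 and 6.19 at day 7. It was lower in day 7 control wounds than in untreated skin, with overlap (-0.63, standard error 0.24, adjusted p = 0.039), a call lost when any 1 of 6 arrays was left out. Ccl27a, a keratinocyte chemokine for skin T cells, was at 4.05, 4.09, 3.97, 4.14 and 4.33 in day 7 control wounds, against 4.26, 4.63, 4.67, 4.60 and 5.49 in untreated skin (-0.61, standard error 0.15, adjusted p = 0.0010). The groups overlapped by 1 array on each side. Its highest array was untreated replicate 5, at 5.49, without which the change was -0.42 and not called. The call was also lost without day 7 control replicate 3, with log2 of intensity plus 16, with array weights and with the 5′ control level as a covariate. The Ccl27a probe set was low in all groups, with group means from 4.01 (day 7 IL-22-Fc) to 4.73 (untreated skin), not far above the background of 3.78. Cxcl13, which attracts B cells, did not pass at either time (0.26 and 0.11).

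Markers of leukocytes moved with these members, and their part in the chemokine values was not tested. At 24 h, 8 of 12 monocyte and macrophage markers and 6 of 10 neutrophil markers were higher than in untreated skin. At day 7 all 12 monocyte and macrophage markers were higher, among them Csf1r, Cd68 and C1qb. Their summed level was 12.56 to 14.37 in untreated skin, 14.48 to 14.74 at 24 h and 14.82 to 15.03 at day 7. The summed neutrophil markers were at 9.32 to 10.29 in untreated skin, 14.48 to 15.10 at 24 h and 13.75 to 14.59 at day 7. Fibroblast markers had 4 of 8 lower at 24 h and 6 of 8 higher with 1 lower at day 7, and all 6 adipocyte markers were lower at both times. Of 10 dendritic and Langerhans cell markers, 2 were higher and Cd207 lower at 24 h, and 6 were lower at day 7, among them Cd207, H2-Eb1 and Cd74. The summed level of that list was 13.31 to 13.96 in untreated skin, 12.97 to 13.85 at 24 h and 12.66 to 13.28 at day 7. In 12 of the 16 members that rose at 24 h, untreated replicate 3 was the highest of the untreated arrays, and in 13 of the 16 the second 24 h array was the lowest of its group. Without untreated replicate 3 the counts against untreated skin were 17 at 24 h and 17 at day 7.

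At day 7 the 3 treatments changed different numbers of members relative to the control wounds. IL-22-Fc had 1 of 44 called (2.27%, beside 2.30% of all probe sets), VEGF 5 (11.4%, beside 5.55%) and PDGF 11 (25.0%, beside 3315 of 20672 probe sets). With VEGF 3 were higher and 2 lower (beside 1.96% and 3.58% of all probe sets), and with PDGF 6 were higher and 5 lower (beside 6.47% and 9.56%). On the adjusted p alone, with no fold threshold, IL-22-Fc had 2 members (4.55%, beside 5.45% of all probe sets), VEGF 9 (20.5%, beside 14.7%) and PDGF 14 (31.8%, beside 34.9%). On that rule the PDGF share was no higher than that of the table. With the fold threshold the share with IL-22-Fc was near that of the table. The median change over the members was 0.05, 0.14 and 0.06, beside -0.00, -0.01 and 0.04 over all probe sets. All 3 comparisons share the 5 control arrays.

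**Figure D2:**
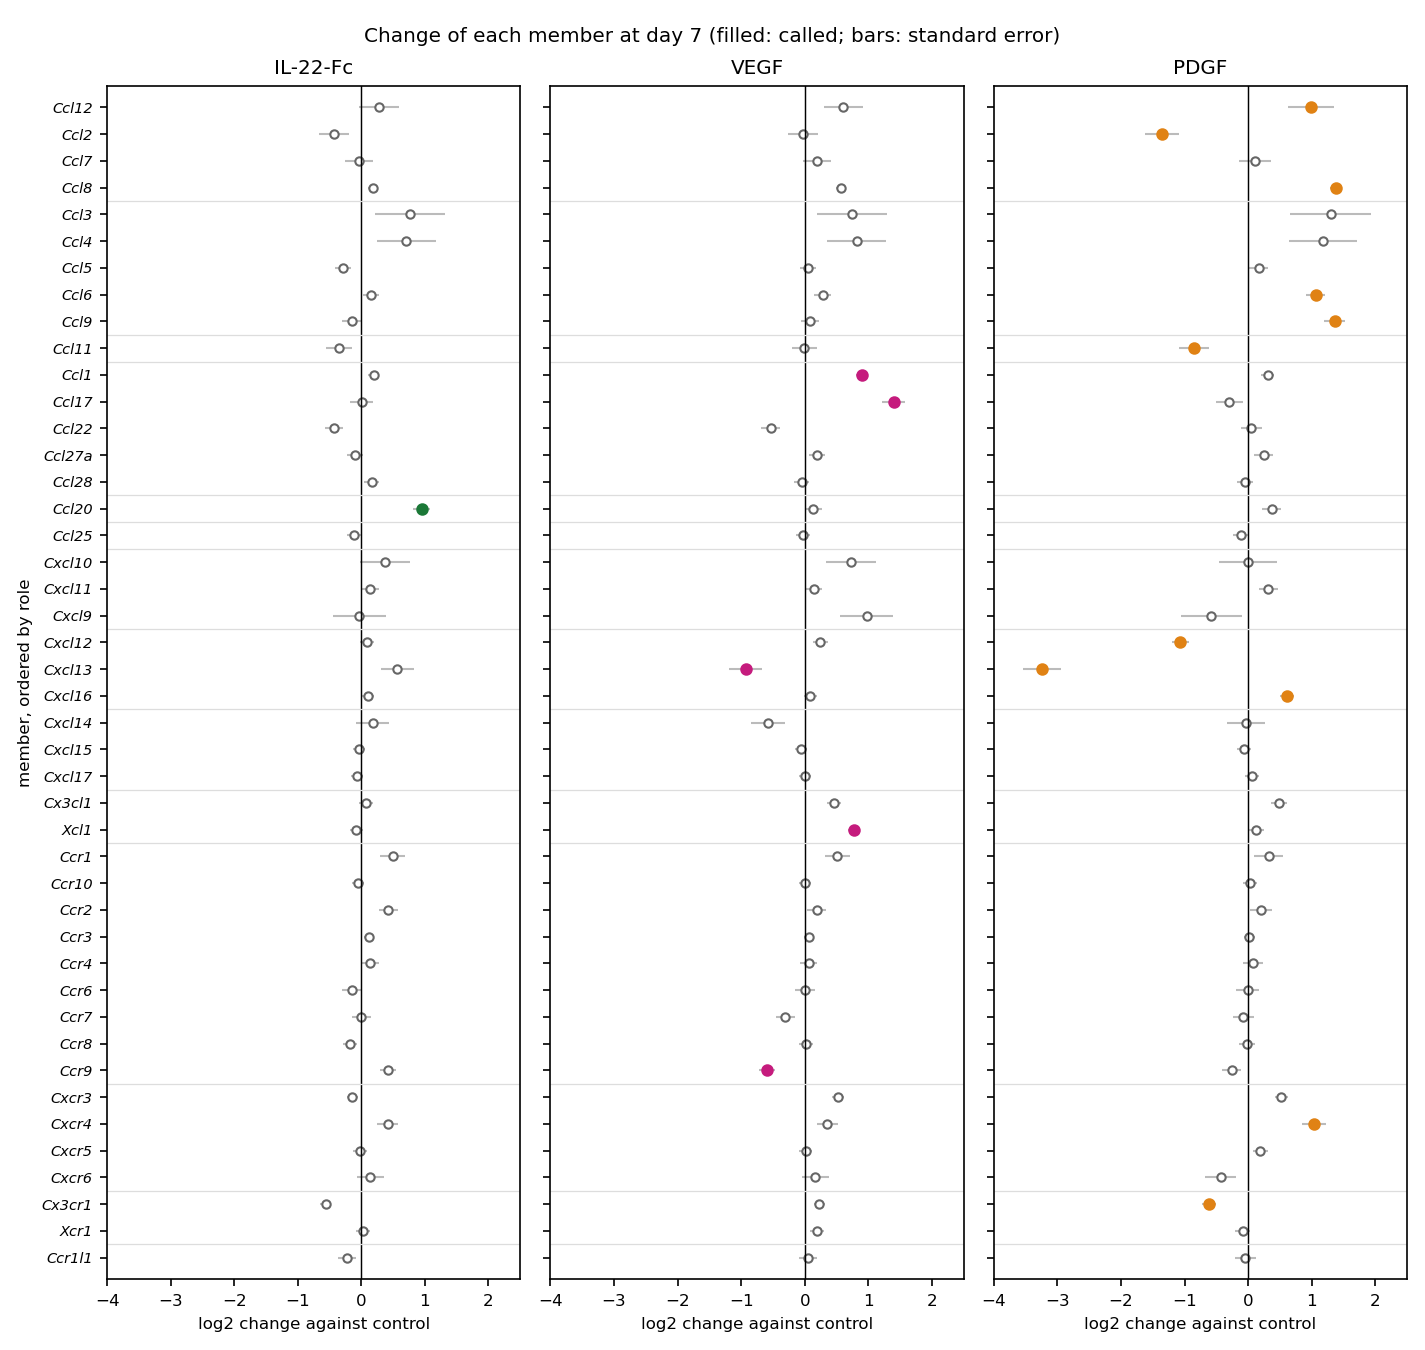
Log2 change against day 7 control wounds with its standard error for each of the 44 members, ordered by role, in IL-22-Fc, VEGF and PDGF wounds. Filled points are the 1, 5 and 11 members called at an adjusted p under 0.05 and at least 1.5-fold, and open points were not called.

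With IL-22-Fc, Ccl20 was the member that rose. It was at 7.33, 7.33, 7.40, 7.05 and 7.24 in IL-22-Fc wounds, against 6.82, 6.19, 5.97, 6.42 and 6.19 in control wounds. The groups did not overlap. The difference was 0.95 (standard error 0.13, adjusted p = 9.0e-05), a 1.93-fold rise, and Ccl20 was also higher with IL-22-Fc than with VEGF (0.82, standard error 0.13, adjusted p = 9.2e-05). Relative to PDGF wounds, where Ccl20 was at 6.88, 6.66 and 6.51, the difference of 0.58 (standard error 0.15, adjusted p = 0.0044) fell just short of 1.5-fold, so that no member was specific to IL-22-Fc, that is, called against the control and both other treatments in the same direction (0 of 44 by limma, beside 0.992% of all probe sets). Ccr6, the receptor of Ccl20, was at 5.73 ± 0.26 with IL-22-Fc and 5.88 ± 0.39 in the control (SD, n = 5 each) and was not called. At 24 h Ccl20 did not differ beyond its spread (7.61 ± 0.64 with IL-22-Fc, n = 5, and 7.56 ± 0.56 in the control, n = 4, SD), and the effect at day 7 minus that at 24 h was 0.89 (standard error 0.33, adjusted p = 0.18).

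Cx3cr1 was lower with IL-22-Fc, at 5.59, 5.65, 5.57, 5.75 and 5.62, against 6.46, 6.16, 6.28, 5.85 and 6.24 in control wounds. The groups did not overlap, and the change of -0.56 (standard error 0.09, adjusted p = 0.00061) was under the 1.5-fold threshold. Ccr9, a receptor of gut-homing T cells, was at 6.36 ± 0.16 with IL-22-Fc and 5.94 ± 0.26 in the control (SD, n = 5 each; adjusted p = 0.067). Cxcl13 was at 8.34, 8.86, 7.77, 8.34 and 8.01 in IL-22-Fc wounds, against 7.31, 7.81, 7.76, 8.18 and 7.41 in control wounds, and did not pass (0.57, adjusted p = 0.25). In these wounds 2 of 10 neutrophil markers, S100a8 and S100a9, were higher, which keratinocytes also make, and their summed list was at 15.31 to 15.41, against 13.75 to 14.59 in control wounds. No marker of monocytes and macrophages, T cells or dendritic cells was called, although the summed T cell list was at 10.47 to 10.58, against 10.72 to 11.06 in control wounds. Thy1, the brightest T cell marker (group means of 9.31 to 10.54), weighs most in that sum. Of 8 keratinocyte markers, Ivl and Lor were lower, with a summed level of 15.13 to 15.33 in IL-22-Fc wounds and 15.49 to 15.71 in control wounds. Of 6 adipocyte markers, Lep and Retn were lower (11.25 to 11.93, against 12.02 to 12.49). The part of these cells in the chemokine values was not tested.

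With VEGF, 3 chemokines of T cell and dendritic cell traffic rose, Ccl17, Ccl1 and Xcl1. Ccl17, a ligand of Ccr4 on skin-homing T cells, was at 6.86, 7.23, 7.01, 7.00 and 7.39 in VEGF wounds, against 5.52, 5.58, 5.37, 6.24 and 5.80 in control wounds. It was 2.64-fold higher (log2 change 1.40, standard error 0.18, adjusted p = 1.5e-05), with no overlap. Ccl1, a ligand of Ccr8, had 5.56, 5.91, 5.84, 5.84 and 5.81 in VEGF wounds, against 4.78, 5.03, 4.91, 4.80 and 4.94 in control wounds. Its change was 0.90 (standard error 0.09, adjusted p = 5.1e-07), again with no overlap. Xcl1, which NK cells and T cells make to attract Xcr1-bearing dendritic cells, had 4.96, 5.55, 5.22, 5.45 and 5.44 in VEGF wounds, against 4.50, 4.57, 4.40, 4.55 and 4.72 in control wounds (0.78, standard error 0.10, adjusted p = 1.6e-05). These 3 were also higher with VEGF than with IL-22-Fc and PDGF and were the members specific to VEGF in limma (3 of 44, beside 2.76% of all probe sets). That count was 1 with log2 of intensity plus 16, without dim probe sets and at 2-fold, and 0 with the 5′ control level as a covariate. It also rests on the contrasts with IL-22-Fc and PDGF. Against the control alone, limma with this covariate still called Ccl17 (1.53, adjusted p = 2.0e-05), Ccl1 (0.89, adjusted p = 5.7e-06) and Xcl1 (0.73, adjusted p = 0.00016). The receptors of these ligands, Ccr4, Ccr8 and Xcr1, were not called, and Ccr8 and Xcr1 stayed near the background. Ccl22, the other Ccr4 ligand, had an adjusted p = 0.014 in the opposite direction (-0.54, standard error 0.14), below the fold threshold.

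Cxcl13 and Ccr9 were lower with VEGF. Cxcl13 was at 6.21, 6.94, 7.91, 6.18 and 6.58 in VEGF wounds, against 7.31, 7.81, 7.76, 8.18 and 7.41 in control wounds. The third VEGF array lay inside the control range and the others below it (-0.93, standard error 0.26, adjusted p = 0.018). This call was lost without control replicate 4, VEGF replicate 1 or VEGF replicate 4 (adjusted p up to 0.064), with all 42 arrays in the fit (adjusted p = 0.13), with array weights (-0.72, adjusted p = 0.090) and with the 5′ covariate (-0.83, adjusted p = 0.071). Ccr9 had 5.15, 5.27, 5.32, 5.49 and 5.49 with VEGF, against 6.24, 5.86, 5.90, 6.11 and 5.57 in the control, with no overlap (-0.59, standard error 0.13, adjusted p = 0.0030). Its 1.51-fold change is close to the threshold, and the call was lost in 4 of the fits that leave out 1 array. Besides Ccl22, the members with an adjusted p under 0.05 below the fold threshold were Ccl8 (0.57), Cxcr3 (0.53) and Cx3cl1, fractalkine of endothelium and epithelium (0.46). Ccl8 had 13.36, 13.21, 13.16, 13.17 and 13.39 with VEGF, against 12.68, 12.57, 12.79, 12.83 and 12.56 in the control, with no overlap. Cxcl9 was higher in each VEGF array (7.27, 8.27, 7.45, 7.18 and 7.94) than in each control array (6.85, 7.03, 6.73, 6.54 and 6.09), but its change of 0.98 did not pass (standard error 0.42, adjusted p = 0.13). The residual spread of this fit includes IL-22-Fc replicate 3, at 8.76, against 5.28 to 6.45 in the other IL-22-Fc arrays.

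Markers of other cells moved in the VEGF wounds, and their part in the chemokine values was not tested. Of 11 endothelial markers 7 were higher and 1 lower, with a summed level of 11.90 to 12.49 in VEGF wounds and 11.24 to 11.57 in control wounds. Of 8 keratinocyte markers 5 were lower (15.01 to 15.12, against 15.49 to 15.71), and of 6 adipocyte markers 5 (10.98 to 11.63, against 12.02 to 12.49). No T cell marker was called (10.95 to 11.29, against 10.72 to 11.06), nor any of the 12 monocyte and macrophage markers (15.15 to 15.29, against 14.82 to 15.03). Of 10 dendritic and Langerhans cell markers, Zbtb46 was higher and Epcam lower (13.06 to 13.54, against 12.66 to 13.28).

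**Figure D3:**
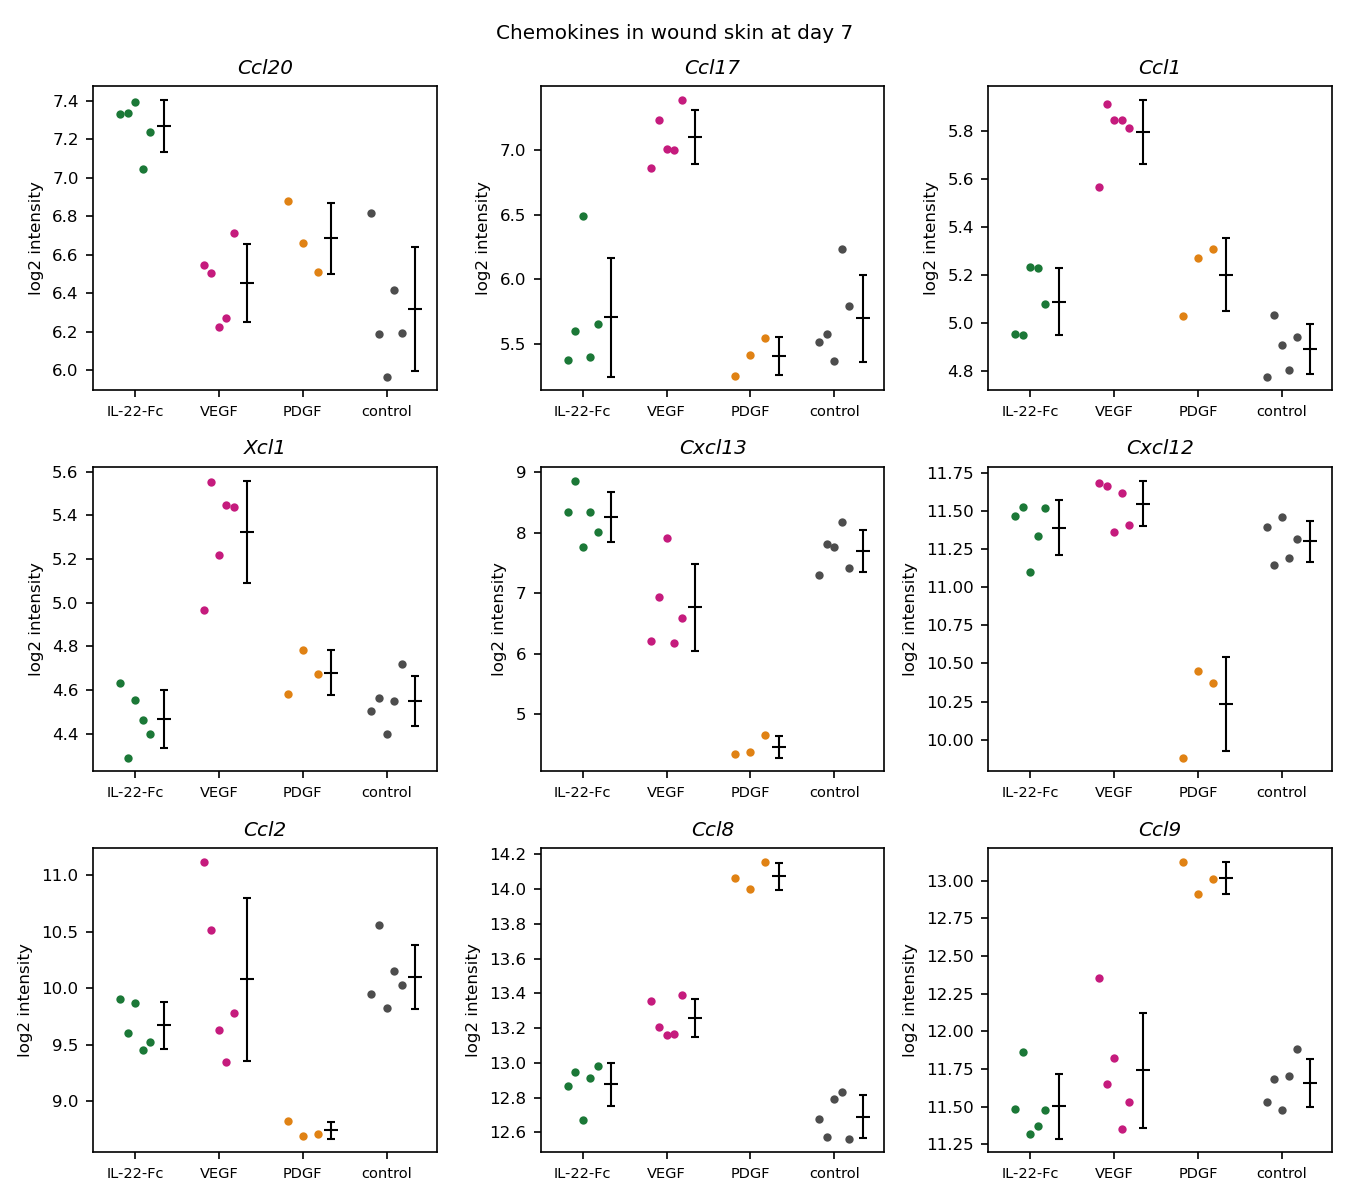
Log2 intensity of 9 members at day 7 in IL-22-Fc (n = 5), VEGF (n = 5), PDGF (n = 3) and control wounds (n = 5). Each point is 1 array and the black marks are the group mean with its SD. Ccl20 stands out with IL-22-Fc, Ccl17, Ccl1 and Xcl1 with VEGF, and Cxcl13, Cxcl12, Ccl2, Ccl8 and Ccl9 with PDGF.

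With PDGF, 5 members fell, among them the stromal Cxcl12 and Cxcl13 and the monocyte attractant Ccl2, and 6 rose, among them the macrophage chemokines Ccl8, Ccl9 and Ccl6. Cxcl13 had the largest change of any treatment at day 7. It was at 4.33, 4.38 and 4.66 in PDGF wounds, against 7.31, 7.81, 7.76, 8.18 and 7.41 in control wounds. It was 9.44-fold lower (log2 change -3.24, standard error 0.30, adjusted p = 4.9e-08). Cxcl12 was at 9.88, 10.45 and 10.37 with PDGF, against 11.39, 11.14, 11.46, 11.19 and 11.31 in the control (-1.07, standard error 0.13, adjusted p = 1.6e-06). Ccl2 was at 8.83, 8.69 and 8.71 with PDGF, against 9.95, 10.56, 9.82, 10.15 and 10.03 in the control (-1.36, standard error 0.27, adjusted p = 0.00045). None of these 3 overlapped with the control, and the Ccl2 call was lost with all 42 arrays in the fit. Ccl11, eotaxin, which attracts eosinophils through Ccr3, fell by 0.85 (standard error 0.24, adjusted p = 0.0069), with 8.05, 8.35 and 7.80 in PDGF wounds and 8.69, 8.98, 8.81, 9.14 and 8.98 in control wounds. Cx3cr1 fell by 0.61 (standard error 0.11, adjusted p = 0.00012), to 5.59, 5.56 and 5.61 in PDGF wounds. The Cx3cr1 call was lost without control replicate 1 (change of -0.55) and with log2 of intensity plus 16.

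Ccl8 rose 2.61-fold and was at 14.06, 14.00 and 14.16 in PDGF wounds, against 12.68, 12.57, 12.79, 12.83 and 12.56 in control wounds (log2 change 1.38, standard error 0.09, adjusted p = 6.2e-10). Ccl9 was at 13.13, 12.91 and 13.01 with PDGF, against 11.53, 11.68, 11.48, 11.70 and 11.88 in the control (1.36, standard error 0.17, adjusted p = 1.9e-06). Ccl6 was at 12.36, 12.16 and 12.30 with PDGF, against 11.17, 11.25, 10.93, 11.40 and 11.31 in the control (1.06, standard error 0.15, adjusted p = 1.1e-05). In each of these macrophage chemokines the 3 PDGF arrays lay above all other day 7 arrays. Cxcr4 was at 9.24, 9.29 and 9.29, against 8.45, 7.63, 8.58, 8.31 and 8.22 in the control (1.04, standard error 0.19, adjusted p = 0.00022). Cxcl12 and its receptor Cxcr4 thus moved in opposite directions. Ccl12 was at 9.04, 9.01 and 9.03 with PDGF, against 7.90, 8.75, 7.84, 8.06 and 7.63 in the control (0.99, standard error 0.36, adjusted p = 0.037), a call lost in 7 of 8 fits that leave out 1 array. Cxcl16, a membrane-bound ligand of Cxcr6 and scavenger receptor on macrophages, rose by 0.61 (standard error 0.11, adjusted p = 0.00027), while Cxcr6 was not called. The Cxcl16 call was lost without PDGF replicate 2 (change of 0.50) and with log2 of intensity plus 16. Ccl3 and Ccl4 were higher in each PDGF array than in each control array and did not pass (1.30 and 1.18, adjusted p = 0.12 and 0.096). Ccl7, a neighbour of Ccl2 and Ccl12 on chromosome 11, differed by 0.10 (95% interval -0.43 to 0.64), so the ligands of Ccr2 moved both ways.

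The members specific to PDGF against the control and both other treatments were Ccl6, Ccl8, Ccl9 and Cxcr4 upward and Ccl2, Cxcl12 and Cxcl13 downward (7 of 44, beside 9.83% of all probe sets). Cxcl13 was 14.0-fold lower with PDGF than with IL-22-Fc and 4.95-fold lower than with VEGF. These calls come from 3 arrays with the low 5′ Gapdh level given above. With the 5′ level of Actb and Gapdh as a covariate, 1 of the 11 calls remained, that of Cxcl13 (-3.99, standard error 0.93, adjusted p = 0.047), and no member was specific to PDGF. In that fit the standard errors were larger and the changes of Ccl9 and Ccl8 were 1.23 (adjusted p = 0.28) and 1.13 (adjusted p = 0.069). The part of RNA quality in the PDGF values was not tested.

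Several cell markers moved in the PDGF wounds, and their part in the chemokine values was not tested. Of 12 monocyte and macrophage markers 4 were higher (Cd163, Csf1r, Cd68 and Mrc1) and Lyz2 lower, with a summed level of 15.09 to 15.13 in PDGF wounds and 14.82 to 15.03 in control wounds. Of 10 dendritic and Langerhans cell markers 6 were higher (13.83 to 14.01, against 12.66 to 13.28), among them Itgax and H2-Eb1. Of 8 fibroblast markers 4 were lower (14.00 to 14.73, against 15.11 to 15.64), of 8 mast cell markers 4 (11.61 to 11.89, against 11.93 to 12.32) and of 6 adipocyte markers 5 (10.69 to 11.51, against 12.02 to 12.49). Of 8 keratinocyte markers, Krt14 was higher and Ivl, Trp63 and Krt10 lower (15.44 to 15.54, against 15.49 to 15.71), and of 11 endothelial markers Tie1 and Vwf were higher and Lyve1 lower (11.42 to 11.68, against 11.24 to 11.57). Of 10 neutrophil markers, Mmp9 and Csf3r were higher (14.12 to 14.25, against 13.75 to 14.59), and of 6 NK cell markers Gzma and Eomes (7.89 to 8.24, against 7.25 to 7.51). Of 5 B cell markers, Cd79b was higher (summed list at 7.01 to 7.12, against 6.54 to 6.79), while Cxcr5, the receptor of Cxcl13 on B cells, stayed at the background.

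Direct comparison of the treatments at day 7 gave 9 members between IL-22-Fc and VEGF (20.5%, beside 8.48% of all probe sets), 9 between IL-22-Fc and PDGF (20.5%, beside 17.9%) and 14 between VEGF and PDGF (31.8%, beside 20.0%). Cxcr3, the receptor of Cxcl9 and Cxcl10, was at 5.43, 5.56, 5.69, 5.90 and 5.78 with IL-22-Fc, 6.22, 6.58, 6.25, 6.24 and 6.39 with VEGF and 6.29, 6.44 and 6.27 with PDGF. Its IL-22-Fc arrays were below all arrays of both other treatments, by -0.67 relative to VEGF (standard error 0.09, adjusted p = 1.4e-05) and -0.66 relative to PDGF (standard error 0.11, adjusted p = 3.9e-05). Ccr9 was higher with IL-22-Fc than with VEGF by 1.01 (standard error 0.13, adjusted p = 5.9e-06), and Cx3cr1 was lower by a log2 change of -0.79 (standard error 0.09, adjusted p = 1.8e-06). Cxcl9 was higher with VEGF (7.63 ± 0.47, SD, n = 5) than with PDGF (6.07 ± 0.49, SD, n = 3) by 1.56 (adjusted p = 0.013).

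At 24 h few members differed from the control wounds. No member was called with IL-22-Fc (0 of 44 by limma, beside 0.0967% of all probe sets) or VEGF (0, beside 0.102%), and 1 was called with PDGF (2.27%, beside 0.914%). At an unadjusted p under 0.05 limma had 1 member with IL-22-Fc (2.27%, beside 7.01% of all probe sets), 3 with VEGF (6.82%, beside 9.39%) and 8 with PDGF (18.2%, beside 15.7%). A plain equal-variance test on each probe set had 1, 4 and 7 (beside 4.94%, 9.62% and 13.8%). The member called with PDGF was Cxcl9, at 9.77, 9.17, 9.02, 9.32 and 9.05, against 8.98, 8.11, 8.15 and 8.49 in control wounds. All PDGF arrays were above all control arrays, the lowest by a small margin (0.83, standard error 0.20, adjusted p = 0.037), and the call was lost in 5 of 9 fits that leave out 1 array. The other Cxcr3 ligands were not called. Cxcl10 had 11.70, 10.56, 12.34, 10.21 and 8.50 with PDGF, against 11.48, 8.17, 12.77 and 11.29 in the control (-0.26, 95% interval -2.21 to 1.68). Ccl5 had 9.43, 9.27, 9.95, 8.30 and 8.11 with PDGF, against 7.88, 6.17, 9.15 and 7.35 in the control (1.37, adjusted p = 0.24).

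Cxcl12 and Cxcl13, which were lower with PDGF at day 7, did not pass at 24 h. Cxcl12 was between 9.67 and 10.38 in the 5 PDGF wounds, against 10.87, 10.62, 10.63 and 10.48 in control wounds, with no overlap (-0.59, standard error 0.16, adjusted p = 0.064). Cxcl13 was at 6.69, 6.16, 7.15, 7.13 and 7.00 with PDGF, against 8.09, 7.57, 7.72 and 8.01 in the control, also with no overlap (-1.02, standard error 0.36, adjusted p = 0.16). The Gapdh 5′ level of these PDGF arrays was 13.12 ± 0.13 (SD, n = 5), against 12.57 ± 0.48 (SD, n = 4) in the 24 h control. The part of RNA quality in these values was not tested. With VEGF at 24 h, Ccl3 was at 8.49, 10.59, 10.38, 9.98 and 9.73, against 10.86, 10.91, 10.76 and 11.14 in the control. All VEGF arrays were below all control arrays, and the change of -1.08 did not pass (standard error 0.52, adjusted p = 0.53). With IL-22-Fc at 24 h the smallest p among the members was that of Ccl11, at 8.79 ± 0.22 with IL-22-Fc (n = 5) and 8.34 ± 0.22 in the control (n = 4, SD; adjusted p = 0.57).

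**Figure D4:**
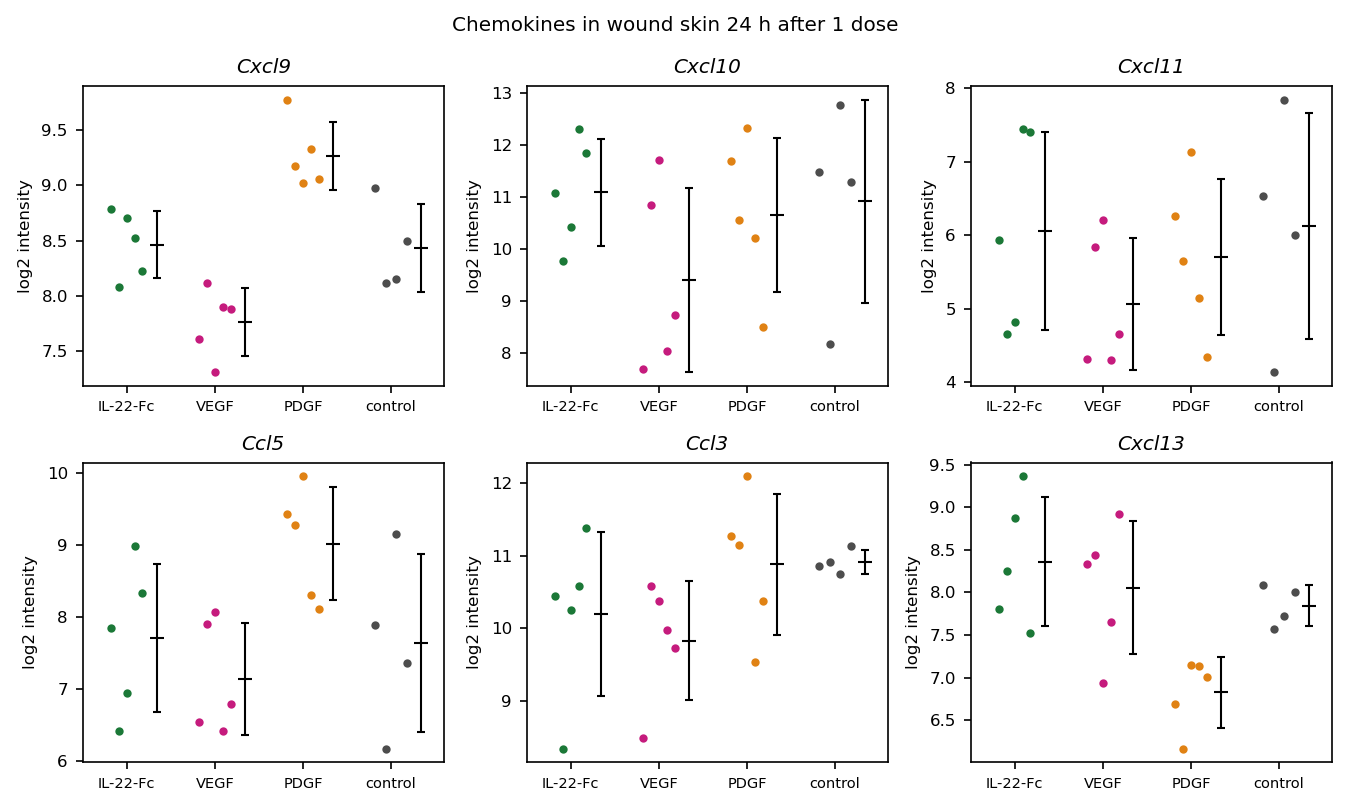
Log2 intensity of 6 members 24 h after 1 dose in IL-22-Fc (n = 5), VEGF (n = 5), PDGF (n = 5) and control wounds (n = 4). Each point is 1 array and the black marks are the group mean with its SD. Cxcl9 was called with PDGF, whereas the arrays of Cxcl10 and Cxcl11 spread widely in every group.

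The spread of the inducible ligands at 24 h limits what these groups can show. Cxcl10 had an SD of 1.95 in the control and 1.77 with VEGF, and Cxcl11 of 1.54 and 0.89. With VEGF the Cxcl10 change of -1.52 had a 95% interval of -3.46 to 0.43. In the second array of the 24 h control Cxcl10, Cxcl11, Ccl5 and Ccl12 were all lowest of their group (8.17, 4.13, 6.17 and 8.29).

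Whether a treatment acted differently at the 2 times was tested as the effect at day 7 minus that at 24 h. No member was called with IL-22-Fc (0 of 44 by limma, beside 1.43% of all probe sets), 5 were with VEGF (11.4%, beside 6.00%) and 8 with PDGF (18.2%, beside 20.9%). The PDGF share was no higher than that of the table. With VEGF, Ccl17 changed by 1.40 (standard error 0.18) at day 7 and 0.09 (standard error 0.20) at 24 h, and the difference of 1.30 passed (standard error 0.29, adjusted p = 0.0022). Ccl1 changed by 0.90 at day 7 and -0.38 at 24 h (difference 1.28, standard error 0.29, adjusted p = 0.0026). Cxcl9 changed by 0.98 at day 7 and -0.67 at 24 h, neither of which was called, and the difference of 1.65 passed (standard error 0.50, adjusted p = 0.033). With PDGF, Ccl2 changed by -1.36 at day 7 and 0.66 at 24 h (difference -2.02, standard error 0.41, adjusted p = 0.00019). Ccl9 changed by 1.36 at day 7 and 0.01 at 24 h (difference 1.35, standard error 0.21, adjusted p = 4.8e-06). Ccl8 and Ccl6 likewise differed, by 1.19 and 1.06. The 5′ levels of the PDGF arrays also differ between the times, and with them as a covariate none of the 8 was called.

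**Figure D5:**
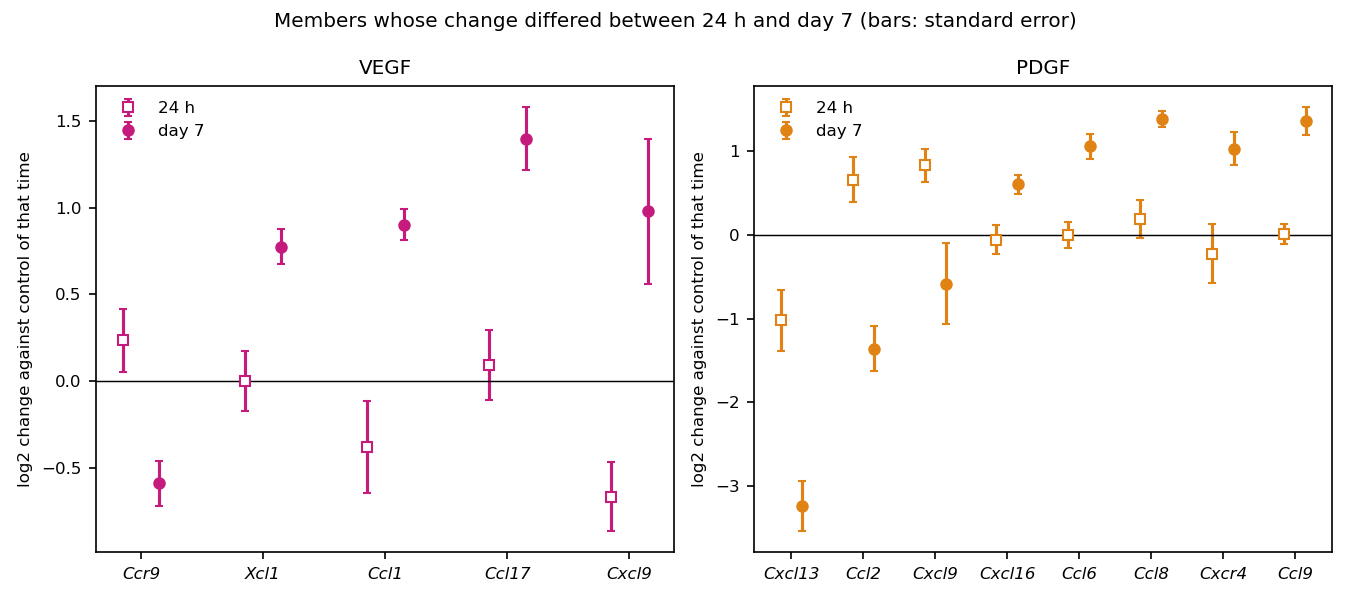
Log2 change against the control of the same time with its standard error, at 24 h (open squares) and day 7 (filled circles), for the 5 members with VEGF and the 8 with PDGF whose change differed between the times. Ccl2 with PDGF changed by 0.66 at 24 h and -1.36 at day 7.

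Genes that act with the receptors were counted from lists chosen by function. Of 5 atypical receptors, which take up chemokines without signalling through G proteins, Ackr3, a scavenger of Cxcl12, and Ccrl2 were higher in 24 h control wounds than in untreated skin. At day 7, Ackr4, which takes up Ccl25 and other homeostatic chemokines, was lower with IL-22-Fc (-0.73, standard error 0.15, adjusted p = 0.0058) and with PDGF, Ackr1 was lower with VEGF and Ackr2 with PDGF. At 24 h Ackr1 was lower with PDGF (-0.69, standard error 0.12, adjusted p = 0.0034). Of 22 signalling genes, 14 were higher in 24 h control wounds than in untreated skin and 11 in day 7 control wounds, none lower, among them the leukocyte integrin chain Itgb2 and the GTPase Rac2. With PDGF at day 7 6 were higher and 3 lower, and none was called with IL-22-Fc or VEGF at either time. Of 10 genes of receptor desensitisation, Rgs16 was higher at day 7 with VEGF and PDGF, and Arrb2 with PDGF. Rgs18 and Rgs13 were lower with PDGF, and Rgs13 was under the background in both groups (3.03 with PDGF and 3.66 in the control).

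The 15 members that were called in none of the 9 comparisons included receptors and ligands that stayed low in all groups. Ccr4 had group means of at most 4.53, Ccl25 of at most 4.33 and Ccl28 of at most 4.38, and none of their group means differed by more than 0.39. Ccr6 and Ccr10 stood above the level of the Y-linked probe sets (group means of at most 5.93 and 5.29), and their group means spanned 0.20 and 0.34. Background can differ between probe sets, and whether these levels show expression was not tested. Cxcr3 and Cx3cl1 had an adjusted p under 0.05 with VEGF and with PDGF at day 7, below 1.5-fold. By position, Ccl2, Ccl7, Ccl11, Ccl12, Ccl8 and Ccl1 follow one another on chromosome 11, and with PDGF at day 7 Ccl2 and Ccl11 of this group fell, Ccl12 and Ccl8 rose, and Ccl7 and Ccl1 were not called. In a second group on chromosome 11, Ccl9 and Ccl6 rose with PDGF and Ccl5, Ccl3 and Ccl4 were not called. Ccl17 and Ccl22 flank Cx3cl1 on chromosome 8, and with VEGF Ccl17 was called while the other pair changed by less than 1.5-fold, in opposite directions.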

How the data were processed

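Chemokine and chemokine receptor transcripts were measured on 42 Affymetrix Mouse430V2 arrays of mouse skin. The authors normalised the arrays with RMA, kept for each Entrez gene the probe set with the highest variance and deposited 1 table of intensity values on a linear scale, although a log2 scale had been planned for. The program versions behind these steps are not given in the sources used here. Selection on variance favours probe sets that moved in some array. Of 20672 probe sets, 17928 had 1 gene symbol, 79 several and 2665 none.

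Values were taken to log2 with no pseudocount and no filter and fitted with limma (version 3.58.1, R 4.3.3), lmFit and eBayes, in 1 fit for each time (18 arrays at day 7 and 19 at 24 h), 1 over all 42 arrays for contrasts with untreated skin and between control wounds, and 1 over 37 wound arrays for differences between times. P-values are two-sided and were adjusted by the Benjamini-Hochberg method over all 20672 probe sets, with calls at an adjusted p under 0.05 and at least 1.5-fold. The test was checked on simulated data first. Any member could be named with its level. Values of every array were given for up to 5 members called higher and 5 called lower with the largest change in a comparison, for members specific to a treatment and for up to 3 members with the smallest adjusted p that missed the call, and further members were shown after their values were seen. From each marker or pathway list up to 4 called genes were named. The members and all lists were chosen with earlier results of these data known. A list's summed level is log2 of the sum of its genes' intensities in each array, so the brightest genes of a list weigh most in it. The labels give no replicate numbers, so replicates are numbered in accession order, and where they do not say that arrays come from separate animals the p-values measure only the spread between arrays. The number of arrays limits the precision. Alternatives were other normalisations, an offset, a filter on dim probe sets, other fold thresholds, other sets of arrays in the fit, array weights, the 5′ control level as a covariate, a plain equal-variance t-test, which the methods use for data other than arrays, and leaving out each array. Raw arrays were not analysed here, and no array is labelled as from a lean mouse.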

Additional observations from a re-analysis of the deposited data

Results flagged for a closer look

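Single arrays stood apart from the rest of their group in 14 of 232 sets of values, each set being 1 of the 29 members called in some comparison in 1 of the 8 groups of 4 or 5 arrays, where chance alone gives about 1 in 20. In the IL-22-Fc wounds of day 7, replicate 3 was apart in Ccl17 (6.49, the highest), Cxcl10 (7.80, the highest) and Cxcr4 (8.13, the lowest). In the day 7 control wounds, replicate 2 was the highest in Ccl7 (9.07) and Cxcl10 (8.20). In the day 7 VEGF wounds, replicate 1 was the highest in Ccl12 (10.23). At 24 h, VEGF replicate 4 was the lowest in Ccl1 (4.70) and IL-22-Fc replicate 2 the lowest in Ccl22 (5.76). The 24 h control wounds had replicate 1 highest in Ccl20 (8.39) and replicate 2 lowest in Cxcr4 (8.40). In untreated skin, replicate 5 was the lowest in Cxcl13 (5.56) and Ccl11 (7.69), replicate 2 the highest in Ccl17 (7.53) and replicate 3 the lowest in Cxcl14 (7.66).

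The effect of a treatment differed between the times, in the limma test of the difference itself (day 7 minus 24 h), for 5 members with VEGF and 8 with PDGF. With VEGF the differences were 1.28 for Ccl1 (adjusted p = 0.0026), 1.30 for Ccl17 (adjusted p = 0.0022), 0.77 for Xcl1 (adjusted p = 0.012), 1.65 for Cxcl9 (adjusted p = 0.033) and -0.83 for Ccr9 (adjusted p = 0.017). With PDGF the ligands Ccl9, Ccl8, Ccl6 and Cxcl16 had differences of 1.35, 1.19, 1.06 and 0.66, and the receptor Cxcr4 of 1.26. The differences of Cxcl13, Ccl2 and Cxcl9 with PDGF were -2.22, -2.02 and -1.41. The adjusted p of the 8 PDGF values lay between 4.8e-06 (Ccl9) and 0.043 (Cxcl9). The 24 h wounds had 1 dose and the day 7 wounds 4, so time and dose number cannot be told apart.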

How the results depend on the processing

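No paired analysis was possible because the labels give the arrays no replicate numbers. No call of a named member changed its direction under any alternative run. Quantile normalisation and median centring kept all 67 calls of members, and leaving out each array in turn kept 570 of 614 and lost 44. Counts of members called moved as follows, and where no construction shows a cause the cause was not tested. With log2 of intensity plus 16, VEGF at day 7 had 3 and 1 specific member. Without probe sets under a mean of log2 6, VEGF had 3 at day 7, 3 differing between times and 1 specific, and PDGF at 24 h had 2. With no fold threshold, IL-22-Fc at day 7 had 2 and 1 specific, and VEGF 9. At least 2-fold left 0 with IL-22-Fc, 1 with VEGF and 7 with PDGF at day 7, 0 with PDGF at 24 h, 3 differing between times with VEGF, and 1 and 3 specific to VEGF and PDGF. With all 42 arrays in 1 fit, PDGF at 24 h had 0, and with only the compared groups 1 member differed between times with IL-22-Fc. Array weights gave 2 and 1 specific with IL-22-Fc at day 7 and 3 with PDGF at 24 h. With the 5′ covariate PDGF had 1 at day 7, 0 at 24 h and 0 differing between times, and 0 were specific to VEGF and 0 to PDGF. In that fit Cxcl13 with VEGF at day 7 was not called (-0.83, adjusted p = 0.071) and Ccl20 with IL-22-Fc was (0.98, adjusted p = 0.00013).

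A plain equal-variance t-test, which the methods use for data other than arrays, at an unadjusted threshold gave 11, 13 and 17 members with IL-22-Fc, VEGF and PDGF at day 7 and 1, 4 and 7 at 24 h. After Benjamini-Hochberg it gave 2 with IL-22-Fc and 17 with PDGF at day 7 and 0 with PDGF at 24 h. Leaving out 1 array gave 1 to 2 members with IL-22-Fc (2 without its replicate 4 or control replicate 4), 3 to 7 with VEGF (3 without VEGF replicate 1) and 9 to 11 with PDGF at day 7. At 24 h it gave 0 to 0 with IL-22-Fc, 0 to 0 with VEGF and 0 to 2 with PDGF (0 without PDGF replicate 1, 2 or 4 or control replicate 3 or 4, and 2 without control replicate 2). The ranges were 15 to 21 for 24 h control against untreated skin, 14 to 17 for day 7 control against it and 16 to 19 between the control wounds. They were 0 to 1, 4 to 7 and 6 to 10 for differences between times with IL-22-Fc, VEGF and PDGF, and 0 to 1, 2 to 4 and 6 to 8 for members specific to each.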
